A study of Mus musculus with 12 samples.

Results

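The 10 genes described here, Kdr, Flt1, Tek, Tie1, Eng, Cdh5, Cldn5, Pecam1, Emcn and Plvap, are textbook markers of endothelial cells. They were taken by symbol from a table of 52459 gene symbols, in which all 10 were present, and all 10 passed the filter on low values that left 17422 genes for testing. The table holds RNA-seq values of choroid plexus from mice of strain B6 at 4 ages, with 3 libraries per age: E12.5 (an embryonic stage), P0 (the day of birth), P14 (postnatal day 14) and A6m (adults of 6 months). All groups share the strain and the tissue, and no genotype, treatment or sex is given for them in the labels. Values are TPM (transcript abundance scaled to transcript length and to the same sum in every library). The comparisons ask how the level of each gene differed between an age and the one before it, and between A6m and E12.5.

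The choroid plexus is an epithelium folded around a vascular stroma inside the brain ventricles, and it secretes cerebrospinal fluid. Its capillaries differ from those of the surrounding brain: their endothelium is fenestrated, with pores spanned by diaphragms, while brain capillaries are closed by tight junctions. VEGF signalling through VEGF receptors keeps such fenestrated capillaries in place in adult tissues, and the angiopoietin and Tie receptor system governs vessel remodelling and quiescence.

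All 10 genes were lower at A6m than at E12.5, and their summed level stepped down at each age. The sum of the 10 was 425 ± 23.8 TPM at E12.5, 267 ± 35.2 TPM at P0, 105 ± 16.4 TPM at P14 and 34.6 ± 8.01 TPM at A6m (mean ± SD, n = 3 each). In 8 of the 10 genes, all but Emcn and Eng, the 3 libraries of each age lay below all 3 libraries of the age before at every step, a pattern held by 11.5% of the tested genes. In bulk tissue, fewer endothelial cells and less RNA per endothelial cell cannot be told apart.

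**Figure D1:**
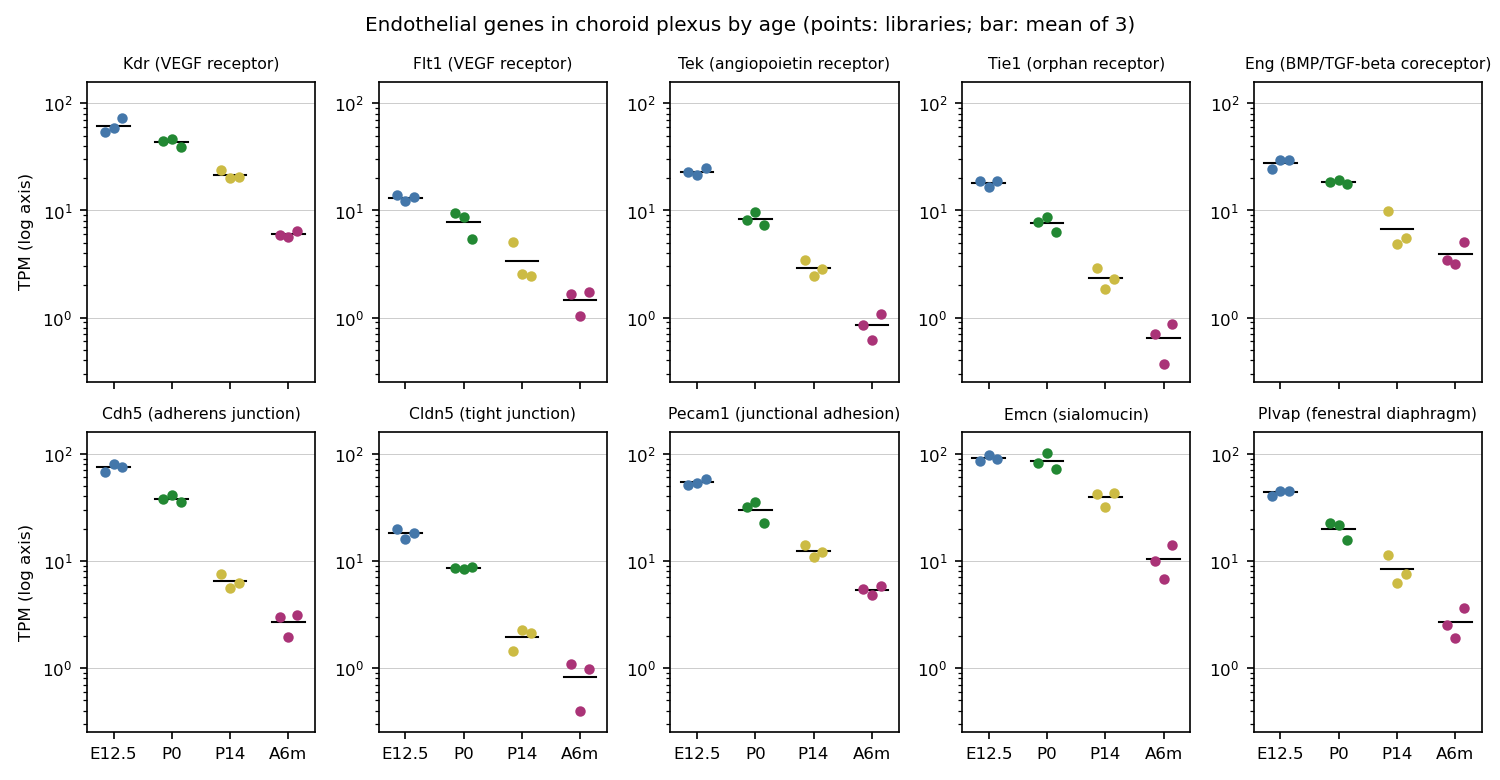
TPM of the 10 genes on a log axis by age, with 1 point per library and a bar at the mean of 3 libraries. Every gene is lowest at A6m, and Emcn alone has libraries at P0 that overlap those at E12.5.

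The libraries differed in composition as well as in age. Transcripts of Ttr, the thyroid hormone carrier of the epithelium, led every P0, P14 and A6m library with 13.7% to 16.9% of TPM, whereas E12.5 replicate 1 was led by the feature Mir6236, with 9.31%. Mitochondrial transcripts took 11% to 17.7% of TPM at E12.5, 19.9% to 22.4% at P0, 28.7% to 32.6% at P14 and 31.3% to 34.0% at A6m, and their part in the values below was tested only by rescaling without them. TPM sums to the same total in every library. The median log2 difference of all tested genes was -0.27 at P0 against E12.5 and -0.41 at P14 against P0. It was -0.04 at A6m against P14 and -0.71 at A6m against E12.5. What part the fixed sum has in these medians was not tested. Every comparison was therefore also made after median-of-ratios scaling, which brought these medians to between -0.02 and 0.0014. Xist, transcribed from the inactive X chromosome, ranged from 148 to 155 TPM in the A6m libraries and from 0.515 to 0.808 TPM in the P14 libraries, while Y-linked Ddx3y was at or below 0.366 TPM at A6m and at or above 80.1 TPM at P14. Xist ranged from 0.430 to 0.689 TPM in the P0 libraries and from 0.389 to 139 TPM in the E12.5 libraries. Sex and age can therefore not be told apart in comparisons of A6m with P14, and the E12.5 libraries were mixed in sex.

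Among the receptors, Kdr (VEGFR2, the main signalling receptor for VEGF-A) was the most abundant at every age. Kdr was at 53.7, 59.0 and 72.7 TPM in the E12.5 libraries, 44.6, 46.0 and 38.9 TPM at P0, 23.8, 19.9 and 20.6 TPM at P14, and 5.92, 5.61 and 6.36 TPM at A6m. No library of one age reached into the range of another. The drop was largest at the last step: Kdr fell by 1.69 ± 0.12 (SE) on the log2(TPM + 1) scale at A6m against P14 (limma adjusted p = 4.9e-06), by 0.98 ± 0.12 at P14 against P0 (limma adjusted p = 6.5e-05) and by 0.50 ± 0.12 at P0 against E12.5 (limma adjusted p = 0.0032). The fall at P0 was 0.22 after scaling (limma adjusted p = 0.029), and it was not called when TPM was rescaled without the 10 most abundant genes or without mitochondrial, globin and Ttr transcripts.

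Flt1 (VEGFR1, which binds VEGF-A and placental growth factor and limits signalling through Kdr) stood lowest of the 10 at E12.5. It had 13.8, 12.3 and 13.3 TPM at E12.5, 9.52, 8.72 and 5.37 TPM at P0, 5.08, 2.56 and 2.43 TPM at P14, and 1.66, 1.03 and 1.73 TPM at A6m. P0 replicate 3 and P14 replicate 1 stood apart from the other libraries of their ages, although the ages did not overlap. Flt1 fell by 2.53 ± 0.24 at A6m against E12.5 (limma adjusted p = 2.2e-06), and this call held under all 23 alternatives. The single steps were less firm: -0.71 at P0 against E12.5 was called under 14 of 23 alternatives and -0.78 at A6m against P14 under 11 of 23. The call at P0 was lost without P0 replicate 3 and without replicate 1 or 3 of E12.5 (limma adjusted p = 0.11, 0.061 and 0.059). The call at A6m was lost without any one A6m library, P14 replicate 1 or 2, E12.5 replicate 2 or 3, or P0 replicate 2 (limma adjusted p = 0.052 to 0.15). At P14 against P0 Flt1 fell by 1.04 as deposited (limma adjusted p = 0.0037) and had -0.62 after scaling (limma adjusted p = 0.061).

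Tek (Tie2, the angiopoietin receptor) and Tie1 (its partner, which binds no angiopoietin with high affinity by itself) fell side by side. Tek was at 22.7, 21.4 and 24.7 TPM at E12.5, 8.14, 9.62 and 7.35 TPM at P0, 3.46, 2.44 and 2.84 TPM at P14, and 0.858, 0.617 and 1.09 TPM at A6m. Tie1 averaged 18.1 ± 1.24, 7.56 ± 1.18, 2.35 ± 0.537 and 0.644 ± 0.255 TPM at E12.5, P0, P14 and A6m (SD, n = 3 each). Both were called lower at all 3 steps and under all 23 alternatives. The ratio of Tie1 to Tek within a library averaged 0.792 at E12.5 and 0.903 at P0, then 0.801 at P14 and 0.736 at A6m, so it moved little while Tek was 26.8-fold and Tie1 28.2-fold lower in mean TPM at A6m than at E12.5.

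Eng (endoglin, a coreceptor for BMP9 and TGF-beta family ligands, also made by mesenchymal cells and macrophages) fell least on the TPM scale. It was at 24.1, 29.5 and 29.6 TPM at E12.5, 18.5, 19.4 and 17.5 TPM at P0, 9.79, 4.88 and 5.55 TPM at P14, and 3.46, 3.19 and 5.03 TPM at A6m. The highest A6m library lay above the lowest P14 library, so these ages overlapped. Eng fell by 1.38 ± 0.21 at P14 against P0 (limma adjusted p = 0.00030). At A6m against P14 its log2 difference was -0.63 (limma adjusted p = 0.059), and 9 of 23 alternatives called it, among them leaving out P14 replicate 2 (limma adjusted p = 0.033) or A6m replicate 3 (limma adjusted p = 0.039). The call at P0 against E12.5, -0.56 with a limma adjusted p of 0.040, held under 10 of 23 alternatives. It was kept without E12.5 replicate 1 and lost when any other library of that comparison was left out (limma adjusted p = 0.064 to 0.10).

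Among the junction genes, Cdh5 (VE-cadherin, the adherens junction protein of endothelium) fell furthest, and most of its fall lay between P0 and P14. Cdh5 was at 68.1, 80.8 and 75.6 TPM at E12.5, 37.7, 41.1 and 35.2 TPM at P0, 7.51, 5.58 and 6.25 TPM at P14, and 2.98, 1.94 and 3.10 TPM at A6m. It was 5.89-fold lower at P14 than at P0 in mean TPM, a log2 difference of -2.39 ± 0.14 (limma adjusted p = 9.2e-07). The other 9 genes were 2.01-fold to 4.40-fold lower over the same step. At A6m against E12.5 the log2 difference of Cdh5 was -4.38 ± 0.14 (limma adjusted p = 4.9e-10).

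Cldn5 (claudin-5, the main tight junction protein of brain capillaries) was at 19.9, 16.1 and 18.0 TPM at E12.5, 8.51, 8.34 and 8.85 TPM at P0, 1.44, 2.27 and 2.13 TPM at P14, and 1.08, 0.397 and 0.970 TPM at A6m. All ages were separate, and A6m replicate 2 was lowest. Cldn5 fell by 1.71 ± 0.16 at P14 against P0 (limma adjusted p = 1.7e-05) and by 0.71 ± 0.16 at A6m against P14 (limma adjusted p = 0.011). Pecam1 (CD31, an adhesion molecule of endothelial junctions, leukocytes and platelets) averaged 54.0 ± 3.46, 29.8 ± 6.72, 12.3 ± 1.58 and 5.32 ± 0.512 TPM over the 4 ages and was called lower at every step. The summed level of 7 platelet genes ranged over 119 to 156 TPM at E12.5, 5.33 to 9.11 TPM at P0, 2.31 to 5.08 TPM at P14 and 2.72 to 3.87 TPM at A6m, with 1 to 3 of the 7 listed at 0 at the last 2 ages. The part of platelet RNA in the Pecam1 values was not tested.

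Emcn (endomucin, a sialomucin on the surface of capillary and venous endothelium) was the most abundant of the 10 at every age. It was at 86.4, 98.0 and 90.0 TPM at E12.5, 81.8, 101 and 72.1 TPM at P0, 41.9, 32.0 and 43.2 TPM at P14, and 10.1, 6.79 and 14.1 TPM at A6m. Its P0 libraries spanned the E12.5 range, with a log2 difference of -0.12 ± 0.21 (limma adjusted p = 0.66), which was 0.17 after scaling and called under none of 23 alternatives. Emcn then fell by 1.1 ± 0.21 at P14 against P0 (limma adjusted p = 0.0013) and by 1.86 ± 0.21 at A6m against P14 (limma adjusted p = 0.00014).

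Plvap (the protein of fenestral and caveolar diaphragms, and the fenestration gene of the set) did not keep its level. Plvap was at 40.5, 45.3 and 44.7 TPM at E12.5, 22.6, 21.4 and 15.7 TPM at P0, 11.5, 6.17 and 7.57 TPM at P14, and 2.50, 1.89 and 3.64 TPM at A6m. The ages were separate, with P14 replicate 1 above the other P14 libraries. It fell by 1.1 ± 0.22 at P0 against E12.5, by 1.18 ± 0.22 at P14 against P0 and by 1.34 ± 0.22 at A6m against P14 (limma adjusted p = 0.0012, 0.0011 and 0.0016), and these calls held under all 23 alternatives.

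Counted together, 9 of the 10 genes were called lower at P0 against E12.5, where 43.7% of all tested genes were, and 10 of 10 at P14 against P0, where 53.5% were. At A6m against P14, 9 of 10 were called lower, against 12.1% of all tested genes. At A6m against E12.5, 10 of 10 were called lower, against 62% of all tested genes, and the F-test over the 4 ages called 10 of 10, against 85.1%. None of the 10 was called higher in any of these 4 comparisons, where 18.6%, 5.33%, 8.78% and 15.2% of all tested genes were. After scaling, the counts lower were 7 of 10 at P0 (31% of all genes), 9 of 10 at P14 (19.8%), 10 of 10 at A6m against P14 (14%) and 10 of 10 at A6m against E12.5 (35.8%), and none was called higher, where 29%, 22.7%, 15.2% and 35.4% of all genes were. Called lower at all 3 steps were 8 of the 10 genes as deposited, against 5.65% of all genes, and 7 of 10 after scaling, against 3.11%.

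**Figure D2:**
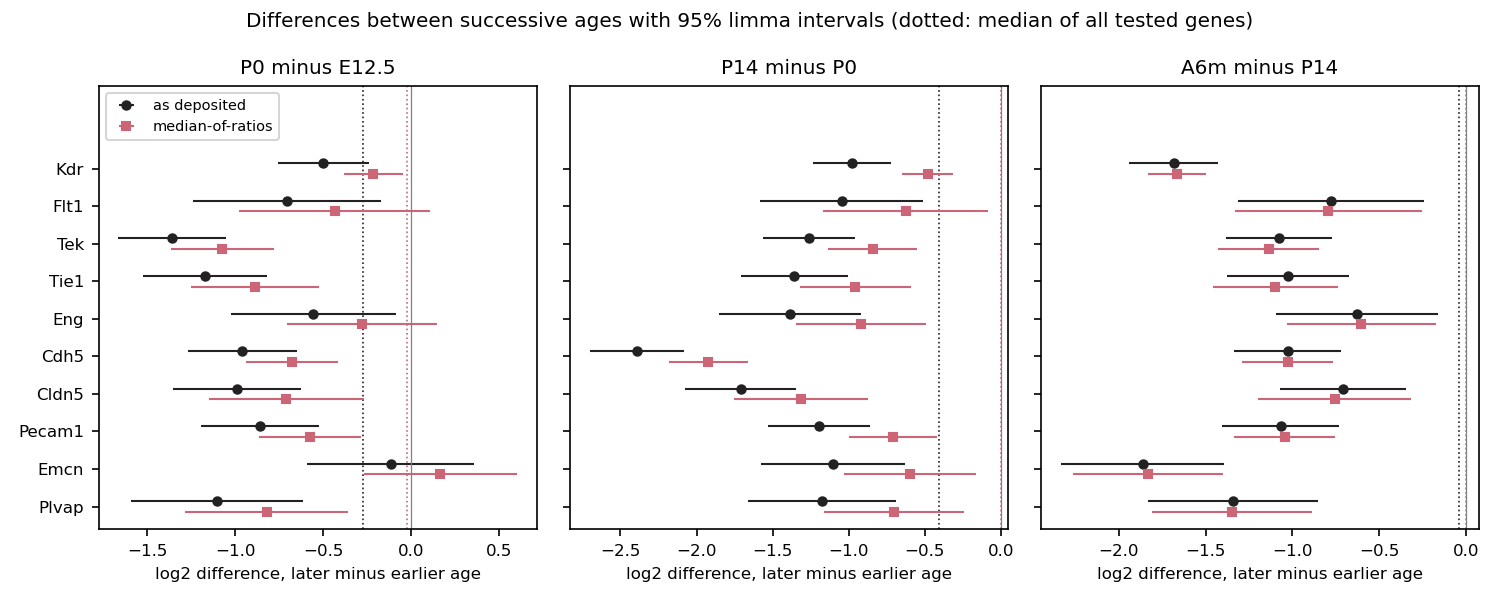
Log2 difference, later minus earlier age, of each gene at the 3 steps, with 95% intervals from limma, as deposited (circles) and after median-of-ratios scaling (squares); dotted lines mark the median of all tested genes. Cdh5 has the largest fall at P14 against P0, -2.39, and Emcn and Kdr the largest at A6m against P14, -1.86 and -1.69.

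The median log2 difference of the 10 was -0.91 at P0 against E12.5, -1.23 at P14 against P0, -1.05 at A6m against P14 and -3.28 at A6m against E12.5. At the last step, where the median of all genes was -0.04, 3.05% of the tested genes had a difference at or below that of the 10. The same share was 18.5% at P0 against E12.5, 6.62% at P14 against P0 and 3.6% at A6m against E12.5. The order of the falls depends on the scale. In mean TPM, Tie1 was 28.2-fold, Cdh5 28-fold, Tek 26.8-fold, Cldn5 22.1-fold and Plvap 16.2-fold lower at A6m than at E12.5, and the other 5 were 7.13-fold (Eng) to 10.4-fold (Kdr) lower. On the log2(TPM + 1) scale the genes that ended below 1 TPM (Tek, Tie1 and Cldn5) are compressed by the added 1, and Cdh5 came first, followed by Tek (-3.70), Plvap (-3.62), Tie1 (-3.55), Cldn5 (-3.41), Kdr (-3.16), Pecam1 (-3.12), Emcn (-3.08), Eng (-2.57) and Flt1 (-2.53).

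The order of the levels shifted with age, TPM being scaled to length. At E12.5 it ran Emcn, Cdh5, Kdr, Pecam1, Plvap, Eng, Tek, Tie1, Cldn5 and Flt1, with overlapping libraries between Cdh5 and Kdr, Kdr and Pecam1, Eng and Tek, and Tie1 and Cldn5. Cdh5 held rank 2 at E12.5, 3 at P0 and 6 at both P14 and A6m. Kdr held rank 2 at P0, P14 and A6m, against rank 3 at E12.5, and its P14 libraries were separate from those of Pecam1 below it. At A6m the last 3, Tek, Cldn5 and Tie1, overlapped, all with means below 1 TPM.

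A list of 28 other endothelial genes, such as Robo4, Egfl7 and Erg, gave the background for these falls. None of the 28 was listed at 0 in any library, and their summed level ranged over 567 to 598 TPM at E12.5, 230 to 313 TPM at P0, 71.9 to 96.2 TPM at P14 and 22.0 to 38.9 TPM at A6m. Called lower were 24 of 28 at P0 against E12.5, 27 at P14 against P0, 21 at A6m against P14 and 28 at A6m against E12.5, and none was called higher. Of all tested genes, 43.7%, 53.5%, 12.1% and 62% were called lower in these comparisons. Their median log2 differences were -1.05, -1.16, -0.84 and -3.14 at these comparisons, close to those of the 10 genes. Cd34, a sialomucin of vascular and blood progenitor cells, fell by 5.18 at A6m against E12.5 (limma adjusted p = 1.5e-09), Ecscr, a regulator of endothelial migration, fell by 4.55 (limma adjusted p = 2.6e-10), and Cd93, an adhesion receptor of endothelium, fell by 4.25 (limma adjusted p = 8.1e-10).

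Each of the 10 genes was next set against those 28 within the same library. The 28 include Cd34, which blood progenitor cells also make. The part of blood RNA in the level of the 28 was not tested. The mean log2(TPM + 1) of the 28 was subtracted, which with an added 1 does not cancel the level of low genes, and 4 further versions used pseudocounts of 0.1 and 5 or none. The version set the sign for some genes: Kdr at A6m against E12.5 ran from -0.79 to 1.27 and Emcn from -0.87 to 1.42. Called in the same direction in all 5 versions were Kdr and Emcn, higher at P0 against E12.5, Cdh5, lower at P14 against P0, and Flt1, higher at A6m against E12.5. On the same scale 70.8% of all tested genes were called higher at P0 against E12.5 and 92.6% at A6m against E12.5, whereas 2.09% were called lower at P14 against P0. Shares of all genes on this scale, here and below, depend on the subtraction, as the 28 fell more than the median gene. They do not show how rare a relative fall is among endothelial genes. As deposited, the lowest log2 differences among the 28 were -2.17 at P14 against P0 and -5.18 at A6m against E12.5. Cdh5 had -2.39 and -4.38 there. At A6m against P14 the lowest was -1.90, and Emcn had -1.86.

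Relative to the 28 genes, Cdh5 fell by 1.18 at P14 against P0 (limma adjusted p = 3.3e-06), with -1.19 to -0.83 over the 5 versions. As a share of the summed TPM of the 28, Cdh5 took 12.9% at E12.5 and 13.9% at P0, then 7.79% at P14 and 8.68% at A6m. The P14 libraries lay between 7.76% and 7.81%, below all P0 libraries, which lay between 13.1% and 15.3%. Emcn took 15.8% at E12.5 and 30.7% at P0, then 47.3% at P14 and 32.7% at A6m, and its relative log2 difference was 0.98 at P0 against E12.5 (limma adjusted p = 9.2e-05). Kdr took 10.6%, 15.7%, 26.0% and 20.1% at the same ages, with a relative log2 difference of 0.60 at P0 against E12.5 (limma adjusted p = 0.00028). Flt1 took 4.76% at A6m and 2.26% at E12.5, with relative differences of 0.32 to 1.44 at A6m against E12.5 over the 5 versions.

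For Eng, the relative difference was called higher in 4 of 5 versions at P0 against E12.5 and in 4 of 5 at A6m against E12.5, and its share was 12.7% at A6m and 4.78% at E12.5. Cdh5 was called lower in 4 of 5 versions at A6m against E12.5, with -1.57 to -0.20 over the versions, and 2.61% of all tested genes were called lower there. Emcn was called lower in 4 of 5 versions at A6m against P14, where 1.45% of all tested genes were. Tek, Tie1, Cldn5, Plvap and Pecam1 were called in the same direction in 3 or fewer versions of every comparison. Plvap took 7.48% at E12.5 and 7.18% at P0, then 9.98% at P14 and 8.57% at A6m of the summed TPM of the 28, and its relative differences at A6m against E12.5 ran from -0.85 to 0.56 over the versions.

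**Figure D3:**
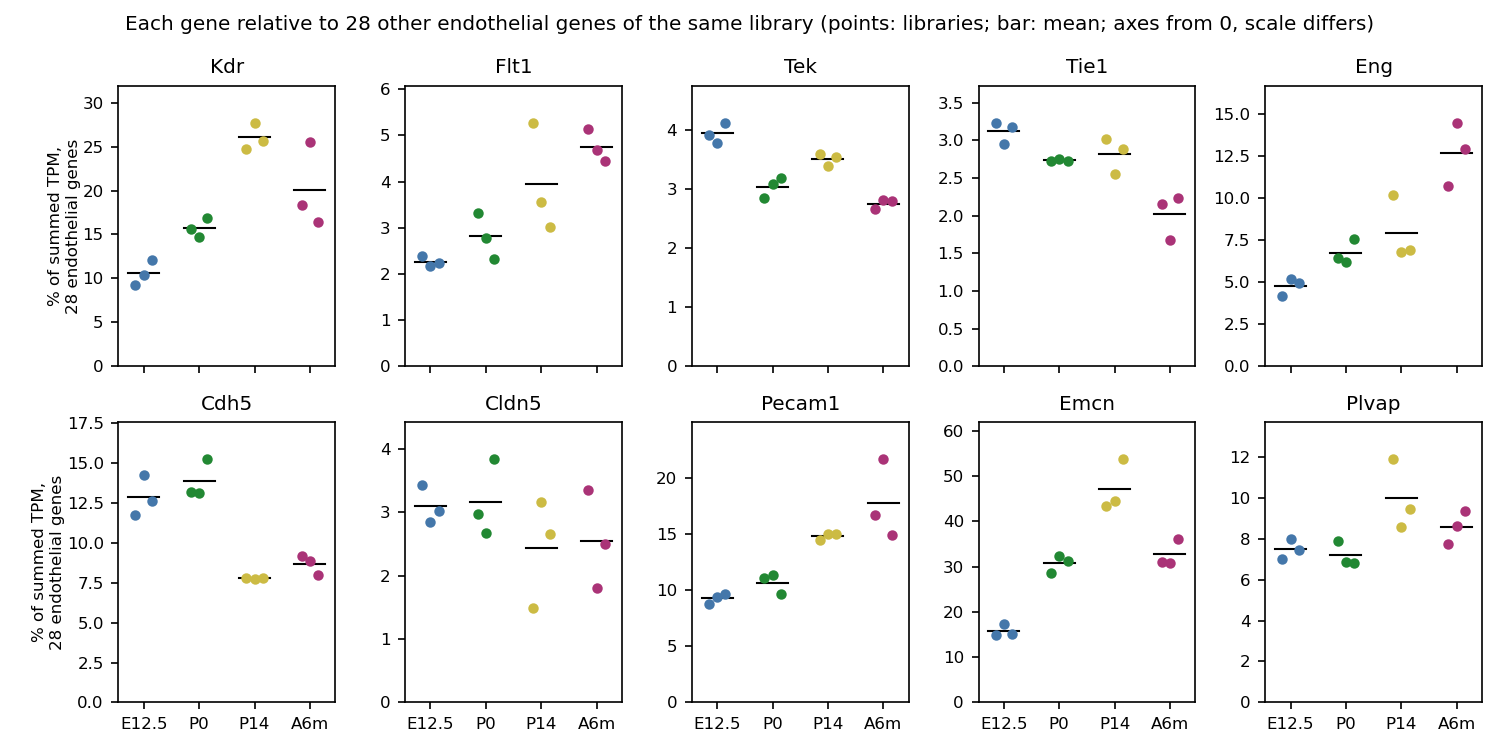
TPM of each gene as a percentage of the summed TPM of 28 other endothelial genes of the same library, by age, with 1 point per library and a bar at the mean; axes start at 0 and differ between panels. Cdh5 averages 7.79% at P14, against 13.9% at P0, while Emcn and Kdr peak at P14.

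Ratios of 2 genes within a library need no scaling at all. Kdr over Cdh5 averaged 0.826 at E12.5 and 1.14 at P0, then 3.35 at P14 and 2.31 at A6m, below 1 in each E12.5 library and above 1 in each later one. Emcn over Cdh5 averaged 1.22, 2.23, 6.07 and 3.80 at these ages. Both ratios were higher in every P14 library than in every P0 library. These ratios are a description and were not tested. The fit relative to the 28 genes sets each gene against the mean of the 28, and not Kdr or Emcn against Cdh5.

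Plvap over Cldn5 sets the diaphragm gene against the barrier claudin. The ratio was 2.03, 2.80 and 2.48 in the E12.5 libraries, 2.66, 2.57 and 1.77 at P0, 7.98, 2.71 and 3.55 at P14, and 2.32, 4.77 and 3.76 at A6m. The ages overlapped, and the value of 7.98 belonged to P14 replicate 1. An exact two-sided permutation test over all 369600 arrangements of the 12 libraries gave p = 0.27 for a difference among ages on the log2(TPM + 1) scale. Without P14 replicate 2 the exact permutation p was 0.044, without P14 replicate 1 it was 0.63, and with a pseudocount of 0.1 it was 0.19.

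The start regions of 7 of the 10 genes were taken from RefSeq (GRCm38.p6), and those of Cdh5, Pecam1 and Plvap were not used here. ETS-family transcription factors, which act in endothelial genes, bind around a GGAA core, so the 250 bases before each start were searched on both strands for AGGAAG and CGGAAG. Of the 7 windows, 4 (Flt1, Emcn, Tie1 and Eng) held 2 matches each, and Kdr, Tek and Cldn5 held none, whereas 39.2% of 32851 promoters of the same length held at least 1. The windows of the 2 genes that fell least on the log2(TPM + 1) scale, Flt1 and Eng, are shown beside those of Tek and Cldn5, which fell by 3.70 and 3.41. Matches on either strand are in capitals. They lie at chr5:147726012-147726261 on the minus strand, chr2:32646345-32646594, chr4:94739039-94739288 and chr16:18776597-18776846 on the plus strand, and all are printed 5′ to 3′ on the strand of the gene.
Flt1: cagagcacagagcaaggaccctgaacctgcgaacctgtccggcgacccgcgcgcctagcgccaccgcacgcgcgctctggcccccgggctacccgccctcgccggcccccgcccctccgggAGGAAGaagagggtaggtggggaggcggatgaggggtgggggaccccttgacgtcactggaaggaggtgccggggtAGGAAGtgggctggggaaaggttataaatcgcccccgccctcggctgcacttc
Eng: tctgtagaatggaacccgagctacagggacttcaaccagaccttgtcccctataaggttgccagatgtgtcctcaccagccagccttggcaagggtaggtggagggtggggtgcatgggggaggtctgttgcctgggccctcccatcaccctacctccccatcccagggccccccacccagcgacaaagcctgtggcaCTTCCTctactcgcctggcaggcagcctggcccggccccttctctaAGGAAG
Tek: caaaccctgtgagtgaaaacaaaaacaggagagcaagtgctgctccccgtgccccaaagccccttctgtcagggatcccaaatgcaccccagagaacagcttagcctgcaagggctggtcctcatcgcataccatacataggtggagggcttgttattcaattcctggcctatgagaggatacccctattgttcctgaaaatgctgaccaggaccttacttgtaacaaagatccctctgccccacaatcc
Cldn5: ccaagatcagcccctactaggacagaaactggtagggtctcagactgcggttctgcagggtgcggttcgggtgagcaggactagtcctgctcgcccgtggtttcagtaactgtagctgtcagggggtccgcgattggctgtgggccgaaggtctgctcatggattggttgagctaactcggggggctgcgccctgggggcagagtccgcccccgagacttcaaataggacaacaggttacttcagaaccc
Of the 4 genes with matches, Flt1 fell by 2.53, Eng by 2.57, Emcn by 3.08 and Tie1, with 1 AGGAAG and 1 CGGAAG, by 3.55. Of those without, Kdr fell by 3.16, Cldn5 by 3.41 and Tek by 3.70. Whether the matches follow the size of the fall was not tested, and 7 genes are too few to tell. The windows shown had 23 (Flt1), 4 (Eng), 2 (Tek) and 12 (Cldn5) CG pairs, against a median of 6 over all promoters. A match of these letters is no evidence of binding.

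The ligands of the receptors split at birth. Of 7 tested VEGF and angiopoietin ligands, 4 were called higher and 1 lower at P0 against E12.5. Of all genes, 18.6% were called higher and 43.7% lower there. The median log2 difference of the ligands was 0.48, against -0.27 for all genes. Of the 7, 6 were called lower and none higher at P14 against P0, where 53.5% of all genes were called lower. After scaling, 3 were called lower and 1 higher, where 19.8% and 22.7% of all genes were. At A6m against E12.5, 1 was called higher and 4 lower as deposited, and 3 and 3 after scaling, with medians of -0.61 and -0.01. Of all genes, 15.2% were called higher and 62% lower there as deposited, and 35.4% and 35.8% after scaling. Vegfa, the ligand of Kdr and Flt1, averaged 99.7 ± 7.68 TPM at E12.5, 148 ± 9.27 TPM at P0, 106 ± 8.09 TPM at P14 and 93.5 ± 7.92 TPM at A6m. It rose by 0.57 ± 0.09 at P0 against E12.5 (limma adjusted p = 0.00019), and at A6m against E12.5 its difference was -0.09 (limma adjusted p = 0.35), which became 0.75 after scaling. Vegfa over Kdr, a ratio that no scaling moves, averaged 1.63 at E12.5 and 3.43 at P0, then 4.98 at P14 and 15.7 at A6m, with all ages separate. The summed level of 10 epithelial genes averaged 17618 TPM at E12.5 and 175199 TPM at A6m. That of the 28 other endothelial genes averaged 581 and 31.1 TPM. The part of tissue composition in this ratio was not tested.

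Vegfb, which binds Flt1 and not Kdr, rose by 0.99 at P0 against E12.5 (limma adjusted p = 0.00011). Pgf, placental growth factor, also a ligand of Flt1, fell by 1.86 at P14 against P0 (limma adjusted p = 8.2e-05) to 2.15 ± 0.824 TPM at P14, against 10.2 ± 0.567 TPM at P0. Angpt1, the activating ligand of Tek, fell by 1.69 at P0 against E12.5 (limma adjusted p = 4.8e-07), while Angpt2, which can antagonise Tek, rose by 0.78 (limma adjusted p = 0.0097). Angpt2 over Angpt1 averaged 0.328 at E12.5 and 2.20 at P0, then 1.33 at P14 and 2.62 at A6m, and every library after E12.5 lay above 1.

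**Figure D4:**
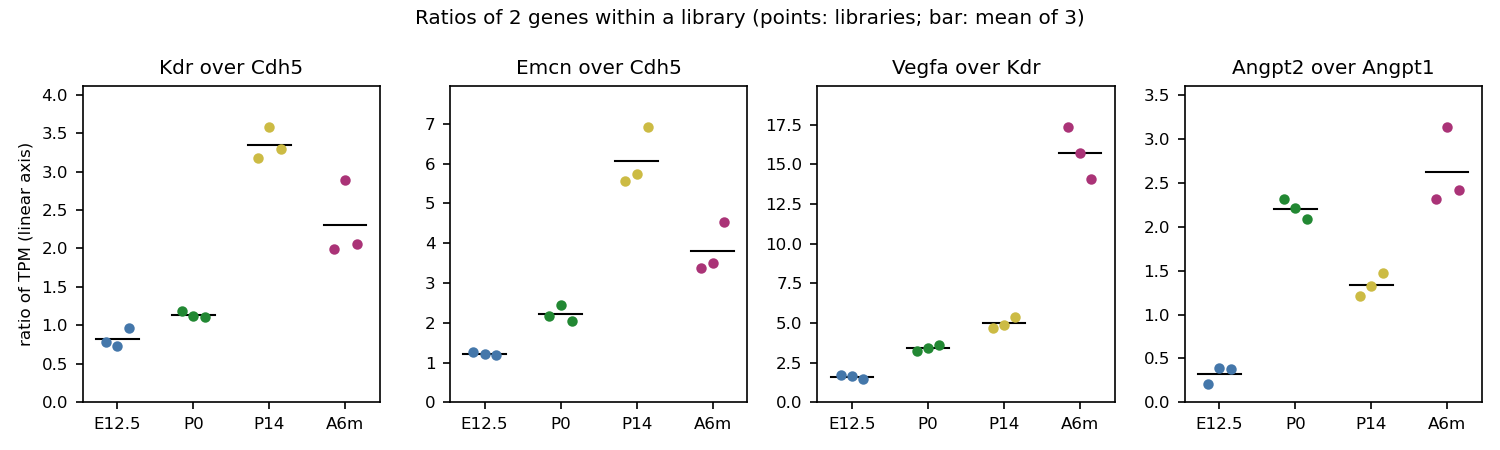
Ratios of TPM of 2 genes within a library, by age, on linear axes from 0, with 1 point per library and a bar at the mean of 3. Vegfa over Kdr is higher at each age than at the one before and reaches 15.7 at A6m. Angpt2 over Angpt1 averages 2.20 at P0, against 0.328 at E12.5. The part of tissue composition in these ratios was not tested.

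Of 13 coreceptors and signalling partners of these receptors, 1 was called higher and 7 lower at P0 against E12.5 (3 and 4 after scaling), and 13 of 13 lower at P14 against P0 (7 of 13 after scaling). Of all tested genes, 43.7% were called lower at P0 and 53.5% at P14 (31% and 19.8% after scaling). The share called higher at P0 against E12.5 was 18.6% (29% after scaling). At A6m against P14, 1 of the 13 was called higher and 4 lower, where 8.78% and 12.1% of all genes were. Nrp2, a neuropilin that partners VEGF receptors, fell by 3.74 at A6m against E12.5 (limma adjusted p = 4.9e-10), with 3.35 TPM at A6m and 56.9 TPM at E12.5. Nrp1, the VEGF-A coreceptor that neurons and other cells also make, had 54.2 ± 5.48 TPM at P0 and 47.0 ± 5.30 TPM at E12.5. This difference was not called as deposited (limma adjusted p = 0.12). It was called higher under all 4 rescalings, with 0.48 after median-of-ratios scaling (limma adjusted p = 7.1e-05). Nrp1 then fell by 0.99 at A6m against P14 (limma adjusted p = 8.2e-05). Acvrl1 (ALK1, the receptor that works with Eng) fell by 1.16 at P0 against E12.5 and by 1.54 at P14 against P0 (limma adjusted p = 1.5e-05 and 7.1e-06). Ptprb (VE-PTP, the phosphatase of Tek and Cdh5) fell by 1.95 at A6m against E12.5 (limma adjusted p = 3.2e-06).

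Genes of caveolae and diaphragm neighbours of Plvap took another course at birth. Of 11, 7 were called higher and 4 lower at P0 against E12.5, where Plvap fell, with a median of 0.45. Of all tested genes, 18.6% were called higher and 43.7% lower there. After scaling, 7 and 2 of the 11 were, against 29% and 31% of all genes. At P14 against P0, 1 was called higher and 7 lower, where 5.33% and 53.5% of all genes were. After scaling, 2 and 3 of the 11 were, against 22.7% and 19.8%. At A6m against P14, 1 was called higher and 8 lower, where 8.78% and 12.1% of all genes were. Cav1, the coat protein of caveolae, rose by 0.94 at P0 against E12.5 (limma adjusted p = 1.4e-05) and fell by 1.92 at P14 against P0 (limma adjusted p = 6.1e-07). Cavin2 rose by 1.35 at P0 against E12.5 (limma adjusted p = 6.4e-07), while Cavin3, another caveolar coat gene, fell by 1.24 (limma adjusted p = 8.9e-06). Esm1, a proteoglycan secreted by endothelium, rose by 1.06 at P0 against E12.5 (limma adjusted p = 0.0031) and fell by 1.56 at A6m against P14 (limma adjusted p = 0.0012). Plpp1 and Plpp3, lipid phosphatases, rose by 0.88 and 0.63 at P0 against E12.5 (limma adjusted p = 3.3e-05 and 0.0035). Many of these genes are also made by epithelium and stroma, and the part of those cells was not tested.

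Markers of barrier-forming brain endothelium, the type for which Cldn5 is best known, split at birth. Of 16 tested, 11 were called higher and 4 lower at P0 against E12.5, where 18.6% and 43.7% of all genes were. At P14 against P0, 1 was called higher and 11 lower, where 5.33% and 53.5% of all genes were. At A6m against E12.5 the split was 4 higher and 7 lower as deposited (15.2% and 62% of all genes). After scaling it was 9 and 4 (35.4% and 35.8% of all genes). Those that rose most are transporters that the choroid plexus epithelium also makes: Slco1a4 was at 218 ± 10.5 TPM at P0 and 6.77 ± 3.65 TPM at E12.5, and Slc22a8 at 38.1 ± 4.72 TPM at P0 and 1.75 ± 0.927 TPM at E12.5. The summed level of 10 epithelial genes was 148565 to 150244 TPM at P0 and 12866 to 23751 TPM at E12.5, and the part of the epithelium in these values was not tested. Foxf2, a transcription factor of this list that brain pericytes also make, fell by 1.98 at P0 against E12.5 (limma adjusted p = 1.3e-07). The amino acid transporter Slc7a5 fell by 2.33 at P14 against P0 (limma adjusted p = 7.4e-07). Mfsd2a, the lipid transporter of barrier endothelium, was low at all ages, rising by 1.33 at A6m against P14 (limma adjusted p = 0.0069) to 2.41 ± 0.388 TPM, against 0.354 ± 0.0702 TPM at P14.

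Of 18 tested arterial, capillary and venous genes, 17 were called lower and 1 higher at P0 against E12.5, and 14 lower and none higher at A6m against E12.5 (14 and 4 after scaling). Of all tested genes, 43.7% were called lower in the first comparison and 62% in the second (35.8% after scaling). The shares called higher were 18.6% in the first and 15.2% in the second (35.4% after scaling). Of the 18, 14 were called lower and none higher at P14 against P0, where 53.5% and 5.33% of all genes were. At A6m against P14, 7 were called lower and 4 higher, where 12.1% and 8.78% of all genes were. Aplnr, the apelin receptor of sprouting and venous endothelium, was at 0.153 ± 0.160 TPM at A6m and 44.4 ± 2.69 TPM at E12.5, a log2 difference of -5.31 (limma adjusted p = 9.3e-11). Efnb2, an ephrin of arterial endothelium, fell by 4.07 (limma adjusted p = 2.5e-09).

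**Figure D5:**
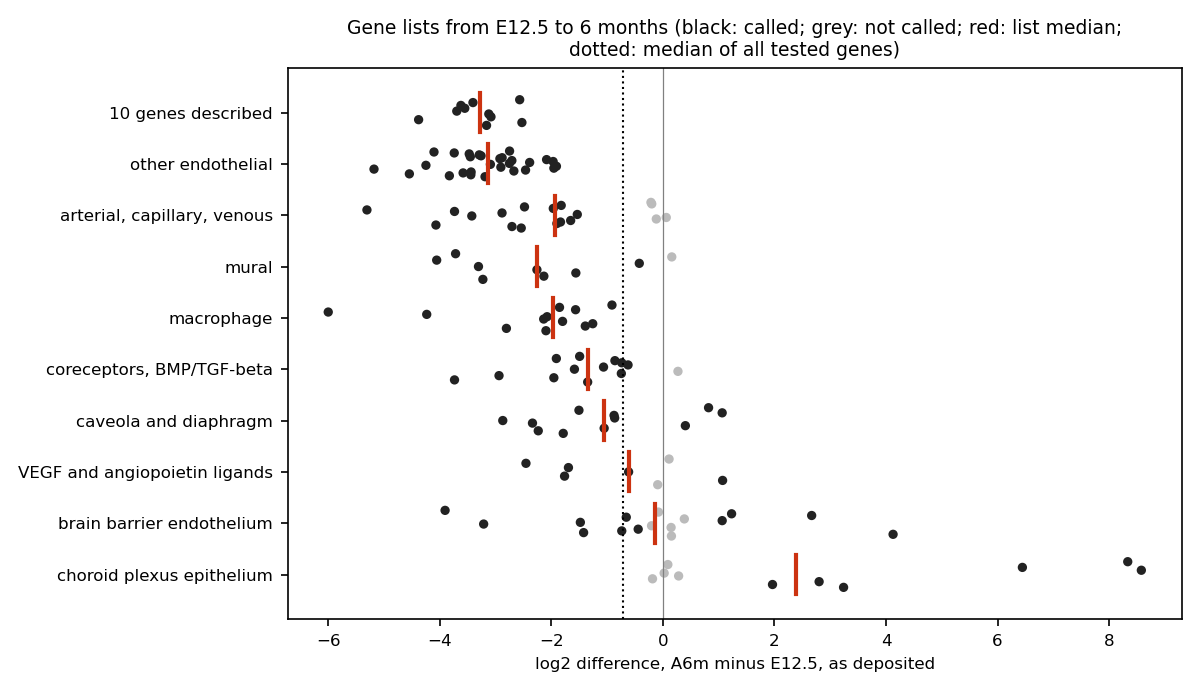
Log2 difference at A6m minus E12.5 of each tested gene by list, as deposited, with called genes in black, others in grey, the list median in red and the median of all tested genes (-0.71) as a dotted line. The 10 genes (median -3.28) and the 28 other endothelial genes (median -3.14) lie left of the dotted line without exception. So do the 12 macrophage genes (median -1.96), while the ligands and the barrier list spread to both sides.

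Genes of mural cells, which wrap the vessels, split at birth. Of 9 tested, 3 were called higher and 4 lower at P0 against E12.5, where 18.6% and 43.7% of all genes were, and 1 higher and 5 lower at P14 against P0, where 5.33% and 53.5% were. At A6m against P14, 7 were called lower and none higher, where 12.1% and 8.78% of all genes were. Rgs5, a pericyte gene, averaged 59.3 ± 11.5 TPM at E12.5, 68.3 ± 7.34 TPM at P0, 71.0 ± 11.9 TPM at P14 and 12.9 ± 3.44 TPM at A6m. It was not called at P0 against E12.5 or at P14 against P0 as deposited (0.21 and 0.05, limma adjusted p = 0.38 and 0.85) and was called higher at both after scaling (0.49 and 0.56, limma adjusted p = 0.016 and 0.013). It fell by 2.40 at A6m against P14 (limma adjusted p = 1.8e-05). Rgs5 over Cdh5 averaged 0.790 at E12.5 and 1.79 at P0, then 11 at P14 and 4.79 at A6m, with separate libraries at all ages. Pdgfrb, the PDGF receptor of mural cells and fibroblasts, fell by 1.42 at P14 against P0 (limma adjusted p = 9.4e-05). The summed level of 10 mural genes ranged over 168 to 253 TPM at E12.5, 113 to 138 TPM at P0, 82.3 to 117 TPM at P14 and 15.5 to 26.7 TPM at A6m, with at most 1 of the 10 listed at 0.

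Blood and macrophage transcripts were also lower at later ages. The summed level of 12 macrophage genes ranged over 326 to 406 TPM at E12.5, 147 to 176 TPM at P0, 64.3 to 74.3 TPM at P14 and 35.3 to 60.1 TPM at A6m, with none listed at 0, and 12 of 12 were called lower at A6m against E12.5, where 62% of all tested genes were. By step, 7 of 12 were called lower at P0, 12 at P14 and 6 at A6m, against 43.7%, 53.5% and 12.1% of all genes. Globin transcripts took 5.56% to 6.26% of TPM at E12.5, 0.664% to 1.35% at P0, 0.0775% to 0.0906% at P14 and 0.0148% to 0.0563% at A6m.

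After birth, the 10 genes tended to be high or low in the same library of an age. P0 replicate 3 was the lowest of its age for 9 of the 10 and had the lowest globin share, 0.664%, against 1.04% and 1.35% in the other P0 libraries. P14 replicate 1 was the highest of its age for 8 of the 10. A6m replicate 2 was the lowest for 10 of 10 and replicate 3 the highest for 9, with summed levels of 26.6 and 42.6 TPM and globin shares of 0.0148% and 0.0563%. At E12.5 the genes were divided: replicates 1, 2 and 3 were highest for 2, 3 and 5 of the 10 and lowest for 6, 4 and 0, and replicate 1 had the lowest sum, 399 TPM, beside the highest globin share, 6.26%. The part that blood or vessel content of the dissected tissue has in this spread was not tested.

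By Pearson's r of log2(TPM + 1) over the 12 libraries, among 10406 other genes averaging 5 TPM or more, the patterns most like that of Kdr included those of Atxn7l3b (r = 0.998), Sh3pxd2a, H3f3a and Adamts12. Most like Plvap were Igfbp4 (r = 0.995), Slc9a3r2, Dlc1, Rap2a and Gimap4. Those most like Cldn5 included Slc40a1 (r = 0.993), F13a1, Rpia and Rpl7, and most like Emcn were Emp1 (r = 0.990), Prkg1, Gucy1b3, Tmem204 and Bex4. The 12 points fall into 4 ages and share composition and scaling, so these values are a description.

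In GENCODE M21 (GRCm38), the 10 genes are protein-coding genes on chromosomes 2 (Eng), 3 (Emcn), 4 (Tek and Tie1), 5 (Kdr and Flt1), 8 (Cdh5 and Plvap), 11 (Pecam1) and 16 (Cldn5), and no other symbol had values identical to theirs. On the opposite strand, Plvap overlaps Gtpbp3, Eng overlaps Fpgs and Cdh5 overlaps the antisense gene Gm29682, which reached at most 8.54, 9.76 and 0.132 TPM in any library. The strand setting of the quantification is not given in the sources used here, so reads of an overlapping pair may be assigned to either gene.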

How the data were processed

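Choroid plexus was put into Trizol on dissection, and a Kapa mRNA HyperPrep kit was used for the libraries, per the labels. The deposited values are TPM, and the authors used kallisto and GRCm38, per the submitters' processing notes, which give no version. The annotation and the summing of transcripts to genes are not given in the sources used here. TPM keeps no read counts, so depth is unknown and no counting interval was given. Another 7 columns were not used, and mutant tissue was not analysed here.

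Genes with at least 1 TPM in at least 3 of 12 libraries (17422) were tested as log2(TPM + 1) with limma 3.58.1 (eBayes with trend, R 4.3.3), all 12 libraries in 1 fit of 4 age means. A gene was called when its p, adjusted by Benjamini-Hochberg over all tested genes, was under 0.05. Folds on this scale understate changes of low genes. The series text calls the specimens independent without saying whether animals were pooled, so p-values measure the spread between these libraries. Whether E12.5 replicates 1 and 3, which held both Xist and Ddx3y, pool embryos of both sexes was not tested. The alternatives were pseudocounts, filters, 4 rescalings, 6 libraries only, array weights, a replicate block and each library left out; relative fits without a pseudocount were added after the data were seen. The genes, the lists and the rule for naming genes (all 10, and from each list up to 4 called members with the largest difference and at least 2 TPM, with the ligand, coreceptor, caveola and barrier lists open in full) were chosen with earlier results of these data known. Some genes with patterns like those of Kdr and Cldn5 are not reported here. Figures were drawn with matplotlib 3.10.9.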

Additional observations from a re-analysis of the deposited data

How the results depend on the processing

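The counts of the 10 genes called lower kept within 1.5 times under every alternative. The lowest was 6, against 9, at P0 against E12.5, without the 10 most abundant genes or without mitochondrial, globin and Ttr transcripts. Leaving out each library in turn gave 7 to 9 at P0 against E12.5, 10 at P14 against P0, 8 to 9 at A6m against P14, 10 at A6m against E12.5 and 10 over the 4 ages. No log2 difference of the 10 reversed among those called. Scaling and depth set the limits: TPM holds no counts, Tek, Tie1 and Cldn5 ended below 1 TPM, and single steps of Flt1, Eng and Kdr (at P0 against E12.5) were called or not by setting.

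Fits relative to the 28 other endothelial genes depended on the pseudocount. With an added 1, the counts in both directions together were 6 at P0 against E12.5 and 2 at P14 against P0. They were 4 at A6m against P14 and 6 at A6m against E12.5. Leaving out a library gave 3 to 6, 2 to 3, 3 to 5 and 6 to 6. At P0 against E12.5 Tek was called lower and the rest higher. At A6m against E12.5 Flt1 and Eng were called higher and the rest lower. At the other steps all were lower. Of all tested genes, 70.8%, 78.2%, 80.9% and 92.6% were called higher on this scale, in the order above, and 6.43%, 2.09%, 1.45% and 2.61% lower. At P0 against E12.5 the count was 3 without E12.5 replicate 1, 2 or 3, P0 replicate 1 or 2, P14 replicate 2, or A6m replicate 1 or 3, 3 from the 6 libraries alone, 3 with the mean log2 without a pseudocount and 2 with the summed TPM. At P14 against P0 it was 4 with pseudocount 5, 1 from the 6 libraries and 5 with the summed TPM. At A6m against P14 it was 2 with pseudocount 0.1, 7 with array weights and 2 with the summed TPM. The cause was not tested.

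Relative differences that reversed, at A6m against E12.5, were Kdr (0.97 with pseudocount 0.1, 0.29 with a mean of at least 5 TPM, 1.27 with the mean log2 and 0.90 with the summed TPM), Plvap (0.29 with pseudocount 0.1, 0.56 and 0.19 without a pseudocount), and, with pseudocount 5, Emcn (-0.87), Pecam1 (-0.70) and Eng (-0.070). Pecam1 also reversed at A6m against P14 (0.29 with pseudocount 0.1, 0.50 and 0.24 without a pseudocount) and, with pseudocount 5, at P0 against E12.5 (-0.025) and P14 against P0 (-0.28). Plvap had 0.051 at A6m against P14 with the mean log2.

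Among other genes, Vegfa at A6m against E12.5 was 0.75 with median-of-ratios scaling, 0.34 with quantile normalization, 0.39 without the 10 most abundant genes and 0.46 without mitochondrial, globin and Ttr transcripts. At P14 against P0, Vegfa (0.040), Vegfb (0.12), Angpt1 (0.41) and Cavin2 (0.13) reversed with median-of-ratios scaling, as did Vegfb (0.011) and Angpt1 (0.53) with quantile normalization. Esm1 at A6m against E12.5 was 0.030 with quantile normalization.

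The range of the age means of the Plvap to Cldn5 log2 ratio was 0.63, and 0.28 to 0.89 when a library was left out, with 0.89 without P14 replicate 2. Replicate numbers did not pair the libraries: same-number deviations correlated at -0.078 to 0.11, and not every library correlated best with its own number. With the number as a block, 8, 10, 9 and 10 of the 10 genes were called at the 4 comparisons and 10 over the 4 ages, and the relative fits called 4, 2, 3 and 6. Eng at P0 against E12.5 was then not called.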
